A study of Mus musculus with 2 samples.

Results

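The genes for the proteins of the cytosolic ribosome were examined for binding of Otp (Orthopedia), a homeodomain transcription factor, in the PVN, the paraventricular hypothalamic nucleus, of adult wild-type mice. Members were the protein-coding genes whose symbol starts with Rpl, Rps or Rplp and a digit, plus Rpsa and Fau, without the Rps6k kinases and without symbols that end in l. This gave 86 of 21887 protein-coding genes, 51 of the large subunit and 35 of the small subunit. A total of 8 members match the symbols but are not standard subunits: the binding protein Rps19bp1, the like-genes Rpl7l1 and Rpl22l1, the retro-copied Rps23rg1, Rps27rt and Rpl37rt, and Rpl31-ps12 and Rpl34-ps1. They are counted among the 86 unless stated otherwise, and the other 78 are called named subunits.

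The method was CUT&RUN, in which an antibody tethers a nuclease to a chromatin protein and the released DNA is sequenced. The Otp antibody and the IgG control, an antibody with no target, were each applied to wild-type PVN nuclei whose cell type the labels give as neurons. There was 1 library per antibody, so the values below are descriptions of these libraries, without replicates and without tests between them. How many mice gave the nuclei and whether neurons were sorted are not stated in the labels, and a peak list holds no expression by which to check the tissue.

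Each ribosome is built of a large and a small subunit, in which these proteins hold the ribosomal RNA in shape, guide the messenger RNA and contact the factors of translation. Their genes are active in every cell type, are mostly short, and have promoters rich in CpG dinucleotides. Their transcripts typically begin with a run of pyrimidines, through which the mTOR pathway adjusts their translation to nutrients. Otp, like other homeodomain proteins, recognises AT-rich DNA with a TAAT core.

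The promoters of 6 members are shown, because the results turn on where the Otp regions lie in such stretches and on their base composition. Rpl13a (chr7:45128696-45128995, reverse strand), Rpl31 (chr1:39367601-39367900, forward), Rpl15 (chr14:18270937-18271236, reverse) and Rps24 (chr14:24490428-24490727, forward) had the highest Otp enrichment among members with a promoter sequence. Fau (chr19:6057697-6057996, forward) and Rps4x (chrX:102189342-102189641, reverse) had no Otp region. The sequences are from RefSeq (GRCm38.p6, the assembly of mm10). Each runs 5′ to 3′ on the strand of the gene for 300 bases, with the annotated start at base 251. Capitals mark the ETS core CCGGAA and the homeodomain core TAAT, each on either strand.
Rpl13a: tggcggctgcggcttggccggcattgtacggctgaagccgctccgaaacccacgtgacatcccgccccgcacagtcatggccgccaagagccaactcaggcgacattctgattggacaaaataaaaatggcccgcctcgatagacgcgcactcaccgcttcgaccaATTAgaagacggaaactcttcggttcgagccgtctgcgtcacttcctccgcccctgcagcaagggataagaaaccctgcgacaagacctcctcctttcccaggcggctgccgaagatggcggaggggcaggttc
Rpl31: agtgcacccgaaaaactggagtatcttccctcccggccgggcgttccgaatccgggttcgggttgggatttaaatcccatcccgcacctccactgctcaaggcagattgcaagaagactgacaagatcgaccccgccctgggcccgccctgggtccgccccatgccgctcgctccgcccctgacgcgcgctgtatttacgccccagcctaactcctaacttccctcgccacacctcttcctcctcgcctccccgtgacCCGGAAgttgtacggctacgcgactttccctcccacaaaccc
Rpl15: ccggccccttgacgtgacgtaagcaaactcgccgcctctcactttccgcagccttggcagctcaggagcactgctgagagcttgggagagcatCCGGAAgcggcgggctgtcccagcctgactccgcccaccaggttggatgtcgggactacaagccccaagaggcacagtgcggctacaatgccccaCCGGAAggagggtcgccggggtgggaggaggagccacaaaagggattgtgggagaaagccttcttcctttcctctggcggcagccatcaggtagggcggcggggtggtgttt
Rps24: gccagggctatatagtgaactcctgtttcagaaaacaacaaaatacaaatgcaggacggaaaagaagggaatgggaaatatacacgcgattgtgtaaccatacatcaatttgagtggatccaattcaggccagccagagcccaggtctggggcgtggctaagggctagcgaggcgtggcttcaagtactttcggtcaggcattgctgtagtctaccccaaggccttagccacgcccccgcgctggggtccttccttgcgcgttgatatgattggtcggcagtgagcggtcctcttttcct
Fau: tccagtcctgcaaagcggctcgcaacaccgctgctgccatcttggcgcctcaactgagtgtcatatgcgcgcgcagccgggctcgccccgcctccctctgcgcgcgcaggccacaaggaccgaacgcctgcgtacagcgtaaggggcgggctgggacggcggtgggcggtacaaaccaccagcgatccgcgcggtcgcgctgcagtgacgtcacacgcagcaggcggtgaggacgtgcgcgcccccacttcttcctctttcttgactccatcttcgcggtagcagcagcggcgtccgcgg
Rps4x: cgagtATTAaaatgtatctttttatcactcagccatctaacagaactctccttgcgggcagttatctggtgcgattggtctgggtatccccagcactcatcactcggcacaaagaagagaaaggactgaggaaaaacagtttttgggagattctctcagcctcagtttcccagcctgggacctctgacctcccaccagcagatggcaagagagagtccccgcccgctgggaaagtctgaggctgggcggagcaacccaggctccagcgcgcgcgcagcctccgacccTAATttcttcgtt

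In these letters the summit of the Otp region fell on base 98 in Rpl13a, 150 in Rpl31, 115 in Rpl15 and 192 in Rps24, all upstream of the start. Rpl15 held 2 matches of CCGGAA and Rpl31 held 1, whereas Rpl13a and Rps24 held none. Among these 4, TAAT occurred only in Rpl13a, 1 time, and none of the 6 promoters held TAATTA. The number of CpG dinucleotides was 27 in Rpl13a, 26 in Rpl31, 18 in Rpl15 and 14 in Rps24. Fau, without a region, held 39, and Rps4x, also without one, held 13. Fau and Rpl15 begin inside pyrimidine runs of 16 and 17 bases.

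Otp regions lay at 51 of the 86 ribosomal protein genes, or 59.3% (95% exact binomial interval 48.2 to 69.8%). A region counted for a gene when its summit lay within 1 kb of either gene end. Of all 21887 protein-coding genes, 27.2% had such a region. Among protein-coding genes of the same length decile the share was 19.7%, and shorter genes had fewer regions. The median member was 3170 bp long, against 17169 bp for all protein-coding genes. Without the 8 non-standard genes, 50 of 78 named subunits had a region (64.1%, 52.4 to 74.7%), against 19.9% of length-matched genes. Of the 8, Rpl22l1 alone had one. Intervals here and below cover counting error only, and genes of 1 library are not replicates.

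No IgG region lay at any of the 86 genes, and none of the 55 Otp regions at members overlapped an IgG region. Across all protein-coding genes 0.379% had an IgG region at an end, and of all 11379 Otp regions 280 (2.46%) overlapped an IgG region. With shares this low, counts of 0 are little to read from. The IgG library also appeared shallower by its background, though total depth is unknown. The genome background, worked out from the deposited values, came to 0.512 tags for Otp and 0.0873 tags for IgG, which differ 5.86-fold. The weakest IgG region with a known height had 4 tags. A member's region therefore needed 23.5 Otp tags to correspond to that height, and 9 members reached it, among them Rpl13a, Rps19, Rpl31, Rpl15, Rps24, Rpl36 and Rpl41. With the ratio of 0.32 found at regions present in both lists, 12.5 tags were needed and 38 members had them. Such regions are selected for a high IgG signal, so this ratio may be too high and the 38 too many. For the members below these heights, a difference from IgG was not detectable at this depth.

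Both subunits carried regions. In the large subunit 28 of 51 genes had one (54.9%, 40.3 to 68.9%), and in the small subunit 23 of 35 (65.7%, 47.8 to 80.9%). These intervals overlap widely, and the length-matched shares were 19.9% and 19.3%. Among named subunits the shares were 58.7% for 46 large and 71.9% for 32 small subunit genes. With −log10 q ≥ 10 the counts were 13 large and 7 small subunit genes, so the higher share of the small subunit was not present there. The median fold enrichment of the strongest region per gene was 7.33 in the large and 6.69 in the small subunit.

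**Figure D1:**
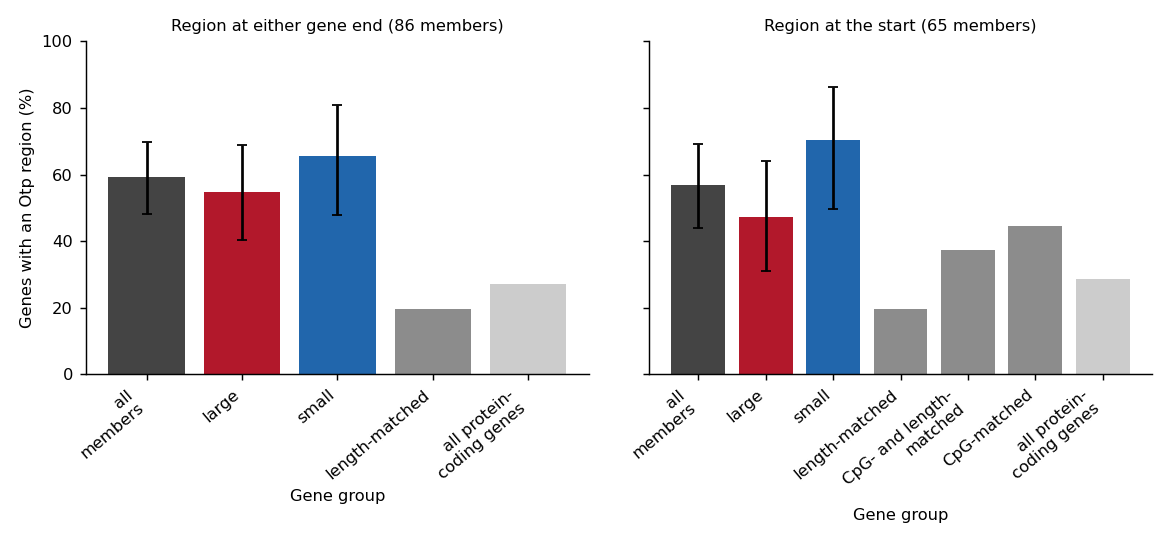
Percent of genes with an Otp region, within 1 kb of either gene end in the left panel (86 members) and within 1 kb of the annotated start in the right panel (65 members with a promoter sequence). Bars give all members, the large and the small subunit with 95% exact binomial intervals, then genes matched on length or on promoter CpG count, then all protein-coding genes. Members stand at 59.3% against 19.7% of length-matched genes on the left, and at 56.9% against 44.6% of CpG-matched genes on the right.

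The strongest region in the large subunit was that of Rpl13a, whose protein also silences inflammatory transcripts in human cells. Rpl13a (gene ID 22121, chr7:45125563-45128745) had its region at chr7:45128768-45129153 with a fold enrichment of 12.9 and 43 tags at the summit (95% Poisson interval 31.1 to 57.9). The summit lay outside the gene, 153 bp from the nearer end. By −log10 q it ranked 490 of the 11379 Otp regions.

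Other large subunit genes followed at lower values. Rpl31 had a fold enrichment of 12.8 with 31 tags (21.1 to 44.0). Rpl15 had 11.6 with 29 tags (19.4 to 41.6), and its summit lay only 14 bp from an end of Nkiras1, an inhibitor of NF-kappaB signalling. Rpl36 had 9.21 with 29 tags, with the summit nearer to Micos13, a mitochondrial cristae protein, at 114 bp than to Rpl36 at 209 bp. Rpl10, an X-linked gene whose protein completes the large subunit late in assembly, had 3 regions, with fold enrichments of 9.04, 6.72 and 5.81, 80, 585 and 928 bp upstream of the start. Rplp1 had 8.77 with 19 tags, Rpl22l1 had 8.50 with 15 tags and Rpl41, which encodes the shortest ribosomal protein, had 8.33 with 29 tags. Of the members with a known strand, Rpl41 alone had a region at its far end, of 17 tags, and that one lay nearer to Zc3h10 (284 bp) than to Rpl41 (386 bp).

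Small subunit genes with high values included Rps24, Rps12, Rps19, Rps26, Rps20 and Rps6. Rps24 had a fold enrichment of 11.0 with 29 tags (19.4 to 41.6) and Rps12 had 9.93 with 18 tags (10.7 to 28.4). Rps19, the gene most often mutated in human Diamond-Blackfan anaemia, had 9.46 with 36 tags (25.2 to 49.8). Its region was the widest at any member, 699 bp, with the summit 538 bp upstream of the start. Rps26, another gene of that anaemia, had 8.86 with 21 tags. Rps20 had 8.33 with 15 tags. Rps6, whose protein is the classical substrate of the S6 kinases downstream of mTOR, had 7.73 with 15 tags.

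**Figure D2:**
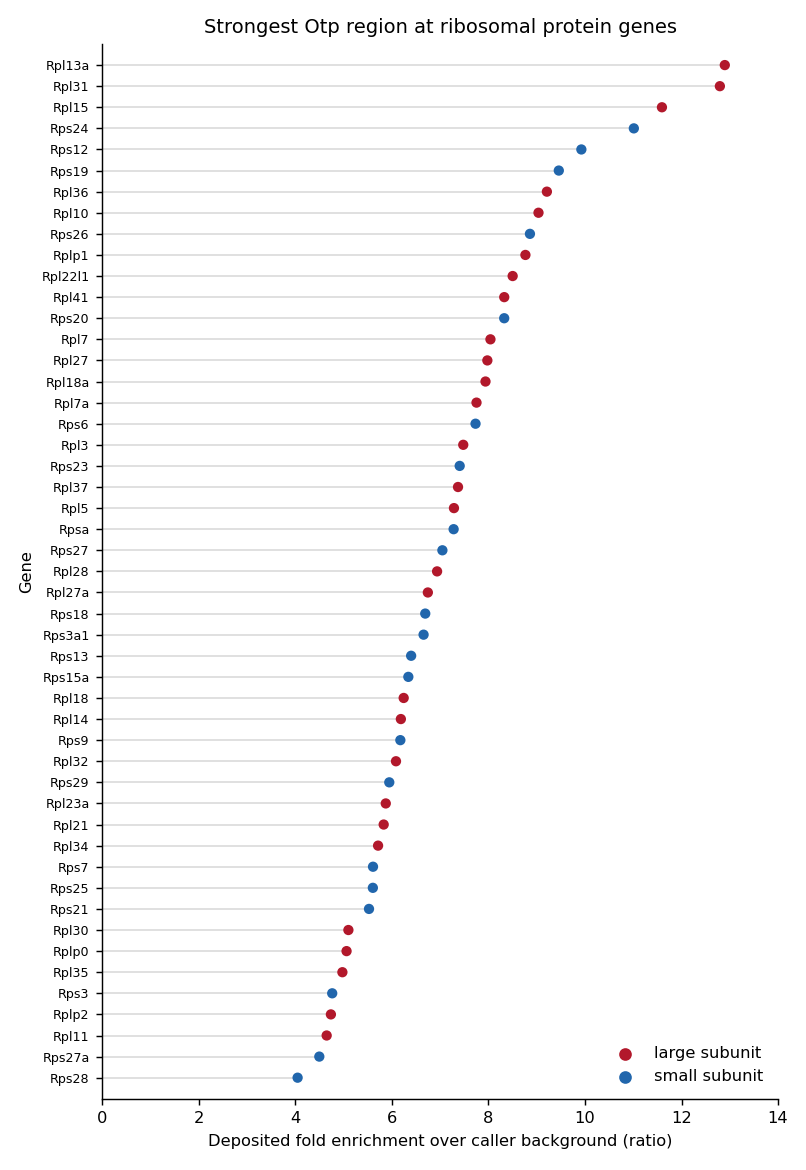
Deposited fold enrichment (ratio over the caller's background, horizontal axis) of the strongest Otp region within 1 kb of an end, for 49 ribosomal protein genes that had one, with large subunit genes in red and small subunit genes in blue. Values run from 4.05 at Rps28 to 12.9 at Rpl13a, with 4 genes above 10, and the 2 subunits are interspersed.

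By role, the 3 genes of the P stalk, the flexible arm that recruits elongation factors, each had a region. Rplp1 was the highest, Rplp0 had a fold enrichment of 5.06 with 10 tags, and Rplp2 had 4.74 with 11 tags. Rpl5 and Rpl11, which join a small ribosomal RNA in the particle that restrains Mdm2 when ribosome assembly fails, had 7.29 and 4.65. Rpl3, which reaches toward the peptidyl transferase centre, had 7.48 with 18 tags, whereas Rpl4, which lines the exit tunnel, had no region. Rps3, at the entry of the messenger RNA, had 4.76 with 11 tags. Of the genes made as ubiquitin or ubiquitin-like fusions, Rps27a had 4.50 with 9 tags and Fau had no region. Rpsa, also known as the laminin receptor, had 7.28 with 16 tags and its summit 3 bp downstream of the annotated start. Of the 4 X-linked members, Rpl10 had a region and Rps4x, Rpl36a and Rpl39 had none.

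The weakest members were Rps28 with 8 tags (−log10 q 2.14), Rps27a with 9 tags (2.92) and Rpl11, whose height had no solution (2.93). These lie just inside the threshold of the list, whose smallest −log10 q was 2.01. By their medians, the regions at members were slightly weaker than those at other gene ends, with overlapping interquartile ranges. Their median fold enrichment was 7.05 (interquartile range 5.85 to 8.33), against 7.83 (6.32 to 10.2) for the strongest region of the 5910 other genes that had one. The median −log10 q was 8.23 (5.81 to 12.5) at members and 9.89 (6.35 to 16.8) at the other genes. The median height was 15 tags at members and 16 tags at the other genes, and the median width was 165 bp and 176 bp. Ribosomal protein genes had a region more often than length-matched genes, and their median enrichment was somewhat lower than that of other genes with one.

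The share of members fell with a stricter threshold together with that of other genes. With −log10 q ≥ 5, 41 members had a region (47.7%), against 16.5% of length-matched genes. With −log10 q ≥ 10, 20 members did (23.3%, 14.8 to 33.6%), against 9.65% of length-matched genes and 13.4% of all protein-coding genes. At 20 or more, 6 members remained (6.98%, 2.60 to 14.6%), against 3.26% of length-matched and 4.86% of all protein-coding genes, both within the interval.

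**Figure D3:**
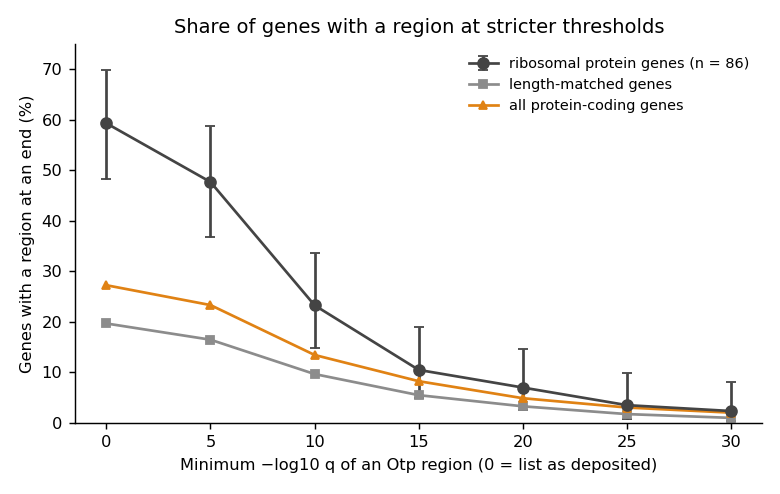
Percent of genes with an Otp region within 1 kb of an end (vertical axis) as the minimum −log10 q of a region increases (horizontal axis), for the 86 members with 95% exact binomial intervals, length-matched genes and all protein-coding genes. The members stand above both lines up to 10, with 23.3% against 9.65% and 13.4%, and from 15 on all protein-coding genes lie within the members' interval.

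A start and a strand were known for the 65 members with a RefSeq promoter entry. Within 1 kb of the start 37 of the 65 had a region (56.9%, 44.0 to 69.2%), against 28.6% of the 17492 protein-coding genes with an entry. Within 1 kb of the far end 1 did (1.54%), against 1.61% of all. The strongest summit lay a median of 80 bp upstream of the start at members (interquartile range −141 to −34 bp, where negative is upstream), against −76 bp (−141 to −23 bp) at 4974 other genes. From 1 to 300 bp upstream held 28 of the 37 summits (75.7%, 58.8 to 88.2%), and 74.3% of those of other genes. Only 6 summits lay at the start or downstream of it, the farthest 45 bp inside, at Rps3a1. The members' summits were thus placed much like those of other genes with a region.

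**Figure D4:**
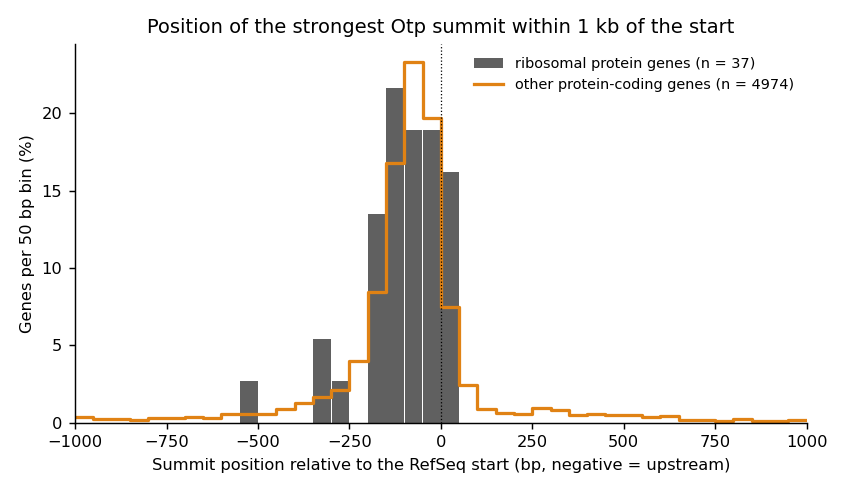
Position of the strongest Otp summit within 1 kb of the RefSeq start (horizontal axis, bp, negative upstream) as percent of genes per bin (vertical axis), for 37 ribosomal protein genes (bars) and 4974 other protein-coding genes (line). Both peak just upstream of the start, with medians of −80 bp and −76 bp.

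Promoter composition differed between members and other genes. The members' promoters held a median of 21 CpG dinucleotides in 300 bases, against 13 over all protein-coding genes with an entry, while their median GC content was 58.0% against 56.3%. Across other genes the share with a region at the start was 0.457% in the lowest decile of CpG count, 53.6% in the ninth and 42.4% in the tenth. When each member was set against genes of its CpG decile, the share was 44.6%. Against genes matched on both CpG count and length, in quintiles of each, it was 37.5%. The 56.9% of members has an interval (44.0 to 69.2%) that includes the first value and not the second. These values differ in bin width as well as in the matching on length. For the 58 named subunits with an entry the share was 62.1% (48.4 to 74.5%). That of CpG-matched genes was 46.4%, just below this interval, and with matching on length as well it was 38.6%. The small subunit had 19 of 27 (70.4%, 49.8 to 86.2%) against 46.3% of CpG-matched genes. The large subunit had 18 of 38 (47.4%, 31.0 to 64.2%) against 43.5%. Matched on both CpG count and length, the shares were 38.6% for the small and 36.7% for the large subunit. The small subunit's interval excludes both of its matched shares and the large subunit's includes both, but the intervals of the subunits overlap. At starts the length-matched share was 19.7%, so the share of CpG-matched genes lay nearer to that of the members.

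**Figure D5:**
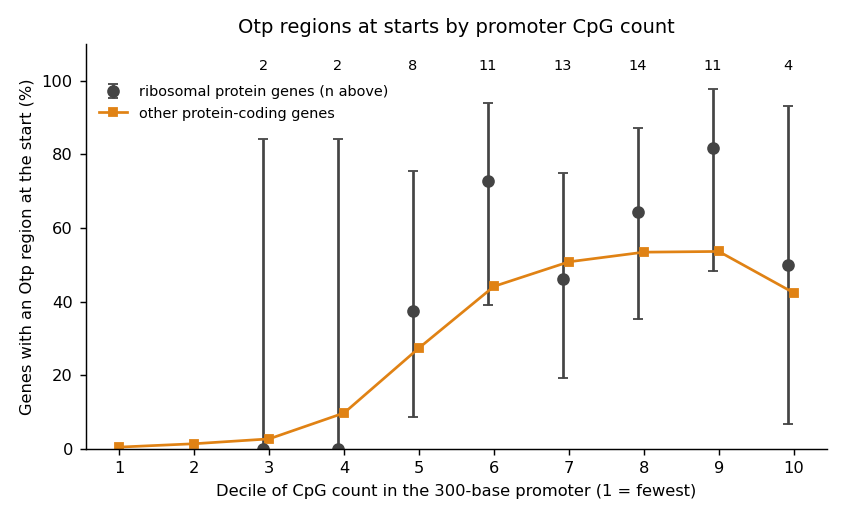
Percent of genes with an Otp region within 1 kb of the start (vertical axis) by decile of CpG count in the promoter (horizontal axis), for ribosomal protein genes with 95% exact binomial intervals and their number above, and for other protein-coding genes. The share of other genes climbs to 53.6% in the ninth decile and is 42.4% in the tenth, and the other genes' value lies within the members' interval in each decile that holds members.

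The members' promoters were searched for short motifs on both strands of the 300 bases. The homeodomain site TAATTA occurred in 2 of 65 members (3.08%), against 4.69% of all 17492 promoters, and in 1 of the 37 with a region at the start. Over all promoters TAATTA was in 2.26% of those with a region and 5.66% of those without. Its core TAAT, which every TAATTA contains, occurred in 15 of the 37 with a region (40.5%) and in 14 of the 28 without. It was in 52.7% of all promoters, in 41.4% of those with a region and in 57.2% of those without. The ETS core CCGGAA occurred in 22 of the 37 with a region (59.5%) and 9 of the 28 without (32.1%). It was in 19.1% of all promoters, in 33.4% of those with an Otp region at the start and in 13.4% of those without. The GC box GGGCGG was in 24 of 37 and 14 of 28, against 71.5% of all promoters with a region and 36.2% of those without.

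The YY1 core AAGATGG, known from many ribosomal protein genes, was in 6 of 37 members with a region and 5 of 28 without, against 6.35% of all promoters. TATAAA was in 8 of 65 members (13.3% of all promoters), the CRE TGACGTC in 8 (3.98%) and the E box CACGTG in 5 (7.91%). A pyrimidine run of at least 8 bases over the annotated start was present in 13 of the 37 members with a region and 4 of the 28 without, against 3.48% of all promoters. Over all promoters the run differed little, at 3.85% of those with a region and 3.33% of those without. These matches describe the letters of the windows, and the number of motifs searched was not adjusted for.

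The members without a region numbered 35. In the large subunit they were Rpl4, Rpl6, Rpl8, Rpl9, Rpl10a, Rpl12, Rpl13, Rpl17, Rpl19, Rpl22, Rpl23, Rpl24, Rpl26, Rpl29, Rpl35a, Rpl36a, Rpl37a, Rpl38 and Rpl39. In the small subunit they included Fau, Rps2, Rps4x, Rps10, Rps14, Rps15 and Rps16. A further 7 were non-standard genes. The median distance from these 35 genes to the nearest Otp summit was 27290 bp, and 30 had no summit within 5 kb.

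A region beyond 1 kb but within 5 kb was present at 5 of them, and at 3 it lay inside the gene. Rpl22 had one 1363 bp inside, with a fold enrichment of 11.8 and 26 tags (17.0 to 38.1), as strong as those of the leading members. Rpl17 had one 1482 bp from an end with 17 tags. Rps2, which lies at the entry of the messenger RNA, had one 1881 bp from the outer end of the gene with 8.13 and 17 tags (9.90 to 27.2). It lay 61 bp upstream of the RefSeq promoter start of Rps2, which is inside the annotated span, so the rule on gene ends missed a region at a start. At Rpl18 the reverse held, since its region lay 116 bp from the outer end but at −2720 bp from the start in the promoter table.

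Some regions lay close to an end of a neighbouring gene as well. The strongest region had an end of another protein-coding gene within 1 kb at 10 members, and at 8 of these the other gene was nearer. These were Rpl15 (Nkiras1), Rpl36 (Micos13), Rpl37 (Card6, 85 bp), Rps27 (Rab13, 51 bp), Rps18 (Vps52, 48 bp), Rps25 (Trappc4, 13 bp), Rplp2 (Pidd1, 221 bp) and Rps28 (Ndufa7, 7 bp). At Rpl7a and Rps27a the member was nearer, and Med22 and Clhc1 lay 124 bp and 189 bp away. Counting each region only for its nearest gene left 43 members, against 16.4% of length-matched genes.

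Chromosome 7 held 14 of the members, and 12 of these had a region (85.7%, 57.2 to 98.2%). The other 2016 protein-coding genes of that chromosome had one in 23.2%, and the 72 members elsewhere in 54.2% (42.0 to 66.0%). The chromosome was singled out after its values were seen, so this count is a description. It includes Rpl13a with a region and Rps16 without one. Members with a small nucleolar RNA gene inside, whose products guide the modification of ribosomal RNA, had a region in 20 of 30, and the others in 31 of 56 (55.4%).

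Pseudogenes of the family give a view of copies without the parent promoter. None of the 320 annotated pseudogenes named after these genes had an Otp region within 1 kb of an end, against 1.06% of the 10109 other pseudogenes, and 1.03% over all. With a share this low among other pseudogenes, the absence of regions here is little to read from. The pseudogenes named after these genes were also shorter, with a median length of 529 bp against 943 bp. Within 5 kb, 25 of the 320 had an Otp region (7.81%), against 3.93% of the other pseudogenes and 4.05% over all.

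Other genes of ribosome production and translation were counted from lists that do not overlap the members. Of 14 non-ribosomal genes whose transcripts carry the same pyrimidine start, 12 had a region, against 28.6% of length-matched genes, and at starts 8 of 9, against 44.8% of CpG-matched genes. They were led by Eif3h, a subunit of an initiation factor (fold enrichment 18.2, 33 tags), Nap1l1, a histone chaperone (15.2), Npm1, a nucleolar chaperone (14.96), and Naca, which binds nascent chains (9.60). Of 30 ribosome biogenesis genes 22 had one, against 28.0% of length-matched genes, and at starts 17 of 25 (68.0%), against 46.0% of CpG-matched genes. They were led by Nop14 (18.2, 53 tags) and Rrp9 (13.5) of small subunit processing and the nucleolar Ncl (12.0). Of 9 genes listed for translation elongation, among them the kinase gene Eef2k, 7 had one, against 27.4% of length-matched genes. At starts, however, 3 of 7 did (42.9%), against 41.2% of CpG-matched genes. The listed genes were led by Eef1e1, better known from the complex of tRNA synthetases (15.3), and Eef1g (11.2). RNA polymerase I genes had one in 5 of 11, led by Polr1d (12.4), against 31.2% of length-matched genes, and at starts also 5 of 11, against 33.1% of CpG-matched genes.

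Families selected by symbol gave shares of a similar size. The Eif family is not separate from the lists above, which hold Eif3h, Eif4b, Eif6 and Eif5a among others. Initiation factors named Eif had a region in 35 of 56 genes (62.5%, 48.5 to 75.1%), mitochondrial ribosomal proteins in 42 of 78 (53.8%, 42.2 to 65.2%) and the proteasome in 20 of 40 (33.8 to 66.2%). The interval of the cytosolic ribosomal proteins, 48.2 to 69.8%, includes all 3 of these shares. The length-matched shares differed, at 30.1% for the Eif genes, 25.3% for mitochondrial ribosomal proteins and 28.6% for the proteasome. For the cytosolic ribosomal proteins, which are shorter genes, it was 19.7%. At starts, with matching on CpG count, the shares were 56.9% against 44.6% for cytosolic ribosomal proteins and 56.5% against 45.5% for mitochondrial ones. For the Eif genes they were 65.9% against 45.9%, and for the proteasome 48.5% against 40.9%. With matching on both CpG count and length, the matched shares were 37.5% for cytosolic and 41.2% for mitochondrial ribosomal proteins. They were 47.3% for the Eif genes and 41.4% for the proteasome.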

How the data were processed

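Regions came from 1 narrowPeak list per antibody, 11379 for Otp and 291 for IgG. The submitters' processing notes name MACS2, Bowtie2, SAMtools, Picard and Trimmomatic and the build mm10. No version or setting is given there, nor how duplicates, reads with several matches or a control library were treated. The deposited fold enrichment is a ratio over the caller's background. The −log10 p and the −log10 q were also deposited by the authors. The display score was not used.

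Heights in tags were worked out from the deposited fold and −log10 p, taking fold as height plus 1 over background plus 1 and p as a Poisson tail. A whole number had to match within 0.001 and the next to miss by 0.005. This worked for 11182 Otp and 262 IgG regions, and was tested on simulated data, with 99.6% of 500 heights recovered. The simulated heights and backgrounds all lay above the weakest IgG height (4 tags) and the IgG genome background (0.0873 tags). The test therefore did not cover the IgG values used for scaling. Total depth is unknown. The genome background is the lowest background shared by at least 3 regions.

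Gene spans came from RefSeq (GRCm38.p6), and starts and strands from its promoter table, 1 entry per gene, the nearest to the outer gene end. Matching is the mean share of other genes in each member's decile, or in its quintiles for CpG count and length together. Named genes were the 8 of highest fold per subunit, the 3 weakest and members by role, plus up to 4 per pathway list; single values of 4 members are not reported here. Members and lists were chosen with earlier results of these data known. CpG matching and height scaling were added after seeing the data. Calculations used Python 3.11.15, numpy 2.4.6, pandas 2.3.3, scipy 1.17.1 and matplotlib 3.10.9.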

Additional observations from a re-analysis of the deposited data

How the results depend on the processing

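The counts of 51 members, 28 large and 23 small subunit genes stayed within 1.5 times under windows of 500 bp and 5 kb, −log10 q ≥ 5, fold enrichment ≥ 5, removal of Otp regions over IgG regions, nearest gene only and named subunits only. A threshold of −log10 q ≥ 10 left 20 members, 13 large and 7 small subunit genes, 12 with the best summit at the start (36 at first), and a median fold enrichment of 8.81. The length-matched share of 19.7% was 17.9% within 500 bp, 25.6% within 5 kb, 16.5% and 9.65% with −log10 q ≥ 5 and ≥ 10, 18.0% with fold enrichment ≥ 5, and 16.4% for nearest gene only. It was 16.5% with length quintiles, 27.2% without matching, 44.6% with CpG deciles at starts and 37.5% with CpG and length quintiles. Within 5 kb, 25 ribosomal protein pseudogenes had a region (7.81%), against 3.93% of other pseudogenes. Scaled by background to the weakest IgG region, 9 members remained. Members stood above the length-matched share at each threshold on −log10 q shown, and from 15 on their interval included it. The low apparent depth of the IgG library limits any comparison with the control. No paired analysis was possible because there is 1 library per antibody, so leaving out a library was not possible either.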
